A study of Homo sapiens with 8 samples.

Results

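The DNA mismatch repair genes MSH6, MSH3, MLH3, PMS1, PMS2, EXO1, PCNA and LIG1, 8 in all, were followed in DLD-1 cells with and without added miR-143. They were listed by name and not by their values, and every probe set of the array that is annotated to 1 of them alone was taken. This gave 18 probe sets for 7 of the 8 genes, among 41091 probe sets for 19752 genes in all. PMS2 had no such probe set, since both probe sets that name it also name its near copy PMS2CL, so no value is given for it. DLD-1 is an established human colon cancer cell line. In the miR-143 group, 4 cultures received a miR-143 duplex at 50 nM with a lipid transfection reagent, and in the mock group 4 cultures were mock transfected. Total RNA of both groups was taken 24 h later, and 1 Affymetrix HG-U133 Plus 2.0 array was used per culture. All cultures are of 1 cell line, and a scrambled duplex was not analysed on arrays here, so adding any duplex and adding miR-143 cannot be told apart. The study's methods call the replicates biological, without saying what a replicate number stands for.

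Mismatch repair removes bases that were wrongly paired, and small loops that were left, when DNA was copied. A MutS dimer that contains MSH6 binds single mismatches and short loops, and one that contains MSH3 binds larger loops. A MutL dimer that contains PMS2, PMS1 or MLH3 is then recruited, and the one with PMS2 nicks the new strand. The exonuclease EXO1 degrades the marked stretch, the sliding clamp PCNA directs the nicking and holds the polymerase that fills the gap, and the DNA ligase LIG1 seals it. DLD-1 is a mismatch repair deficient line that carries inactivating mutations of MSH6, so its DNA is unstable at short repeats. The subunits that pair with these MutS and MutL proteins were not analysed here.

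The duplex given to the miR-143 group mimics mature miR-143, and the mock group received no duplex. The methods do not print the sequence of the duplex, so mature miR-143-3p is shown in its place. The mature strand is written 5′ to 3′ from RefSeq (GRCh38.p14, chr5:149428978-149428998, plus strand), with the seed, bases 2 to 8, in capitals.

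hsa-miR-143-3p: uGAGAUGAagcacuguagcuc

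Promoter windows of 300 bases, 250 before and 50 after an annotated start, were taken from RefSeq (GRCh38.p14) for all 8 genes, 14 windows in all, because sites of E2F, a factor family of S phase, are known in genes of DNA synthesis. The letters TTTCGCGC, TTTCGCGG, TTTGGCGC and TTTGGCGG were searched on both strands. They stood in a window of 2 of the 8 genes, EXO1 and MSH3, and in 2.2% of all 35116 windows (2.7% of 27305 genes). EXO1 had 1 match, from base 5 to base 12 after the start. MSH3 had 2 matches on opposite strands, from base −107 to −100 and from −103 to −96, which overlap each other. Of 11 further DNA synthesis and DNA binding genes with such windows, taken up below, 1 (RFC1) held the E2F letters. The pentamer CCAAT stood in windows of 4 of the 8 genes (MSH6, PMS1, PMS2 and PCNA), against 39.7% of all genes. The hexamer TTTGAA, the third motif searched, stood in windows of 0 of the 8 genes, against 18.2% of all genes. A match is a description of the letters only. No other spelling of an E2F site was searched, so genes without the E2F letters above may still hold one. The 2 windows with the E2F letters are shown on the plus strand with these letters in capitals, for EXO1 at chr1:241847954-241848253 and for MSH3 at chr5:80654402-80654701.

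EXO1: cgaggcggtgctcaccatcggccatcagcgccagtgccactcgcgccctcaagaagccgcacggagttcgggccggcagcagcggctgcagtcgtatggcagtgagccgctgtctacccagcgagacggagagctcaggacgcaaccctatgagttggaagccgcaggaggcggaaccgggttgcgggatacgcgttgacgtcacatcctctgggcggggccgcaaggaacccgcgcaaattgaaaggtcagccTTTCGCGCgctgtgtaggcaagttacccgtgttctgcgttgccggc
MSH3: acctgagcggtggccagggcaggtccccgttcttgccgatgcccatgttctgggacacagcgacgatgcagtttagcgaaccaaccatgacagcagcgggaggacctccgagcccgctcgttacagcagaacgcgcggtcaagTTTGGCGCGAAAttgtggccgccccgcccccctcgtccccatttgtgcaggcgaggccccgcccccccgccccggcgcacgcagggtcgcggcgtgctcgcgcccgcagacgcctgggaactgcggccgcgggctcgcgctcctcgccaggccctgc

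The deposited values are log2 expression values per probe set, made with RMA, and a difference of 1 is a doubling. Probes differ in how strongly they bind, so levels are compared between arrays and not between probe sets. Array medians lay between 7.15 and 7.23. Principal component 1 took 63.6% of the variance and set replicate 4 of both groups apart from the rest. Its scores were 33.1 with miR-143 and 35.3 in mock, and those of the other 6 arrays ran from −24.8 to −4.48. Of 10 markers of colorectal epithelium 6 lay above the third quartile of all probe sets (8.40), among them EPCAM, CDH1 and KRT20. VIL1, CDX1 and CDX2 lay between the median and that quartile, and LGALS4 lay below the median. The 12 measured markers of fibroblasts, leukocytes and endothelium averaged 6.70 to 8.14 with miR-143 and 6.70 to 8.15 in mock. VIL1, CDX1 and LGALS4 lay within these ranges. Of the 18 probe sets of the mismatch repair genes, 8 averaged no higher than 8.15 in either group. With limma, 1 of the 41091 probe sets passed an adjusted p of 0.05, a probe set of the noncoding RNA OIP5-AS1 with a log2 fold change of −0.68 (adjusted p = 0.0177), and HK2, the gene of the study's title, had −0.36 (unadjusted p = 0.0442, adjusted p = 1). With the replicate number as a block in the same fit, 171 probe sets were called lower and 45 higher, and HK2 was among those lower, with a 95% interval of −0.47 to −0.25 (adjusted p = 0.00976), each miR-143 array lying under the mock array of its number. The study itself used limma after a variance filter, which left fewer genes than are tested here. It also reported HK2 as lower by quantitative RT-PCR and by western blot. Whether the replicate numbers mark pairs is not settled, so calls are given without the block unless it is named. In such bulk RNA, fewer cells of a kind and less RNA per cell cannot be told apart.

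MSH6, the gene that is mutated in DLD-1, gave about the same signal in both groups. Where a gene has several probe sets, they are taken in order of their mean signal. The brightest of the 4 of MSH6 had 9.01, 8.77, 8.75 and 9.04 in miR-143 replicates 1 to 4, against 8.93, 8.93, 8.79 and 8.94 in mock replicates 1 to 4. The 4 mock values lay within the range of the miR-143 values, whose replicates 1 and 4 were the 2 highest of all 8 arrays and whose replicates 2 and 3 were the 2 lowest. The means were 8.89 ± 0.16 with miR-143 and 8.90 ± 0.07 in mock (SD, n = 4 each), a log2 fold change of −0.0052 with a 95% interval of −0.18 to 0.17 (adjusted p = 1 by limma). On the linear scale this interval runs from 0.881 to 1.13 times the mock level. The other 3 probe sets of MSH6 lay below the median level of all probe sets (7.31). Of these, the second averaged 7.28 ± 0.20 with miR-143 and 7.31 ± 0.13 in mock (SD, n = 4 each). The third averaged 6.67 with miR-143 and 6.74 in mock, a log2 fold change of −0.072, and the fourth averaged 6.60 with miR-143 and 6.53 in mock, a log2 fold change of 0.071.

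MSH3, whose MutS dimer does not need MSH6, was read by 2 bright probe sets that behaved differently in replicate 4. The brightest of its 3 probe sets had 9.14, 8.93, 8.95 and 9.46 with miR-143, against 9.11, 9.20, 9.07 and 9.46 in mock. Replicate 4 was the highest array of each group, and the groups overlapped. The means were 9.12 ± 0.25 with miR-143 and 9.21 ± 0.18 in mock (SD, n = 4 each), a log2 fold change of −0.093 with a 95% interval of −0.38 to 0.19 (adjusted p = 1 by limma). The second had 8.81, 8.74, 8.74 and 8.79 with miR-143, against 8.83, 8.80, 8.76 and 9.02 in mock. Here mock replicate 4 was the highest array and miR-143 replicate 4 was not set apart from its group. Its log2 fold change was −0.082 with a 95% interval of −0.22 to 0.061 (adjusted p = 1 by limma). The third probe set was dim, at 6.63 ± 0.10 with miR-143 and 6.58 ± 0.054 in mock (SD, n = 4 each), and had a log2 fold change of 0.042.

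**Figure D1:**
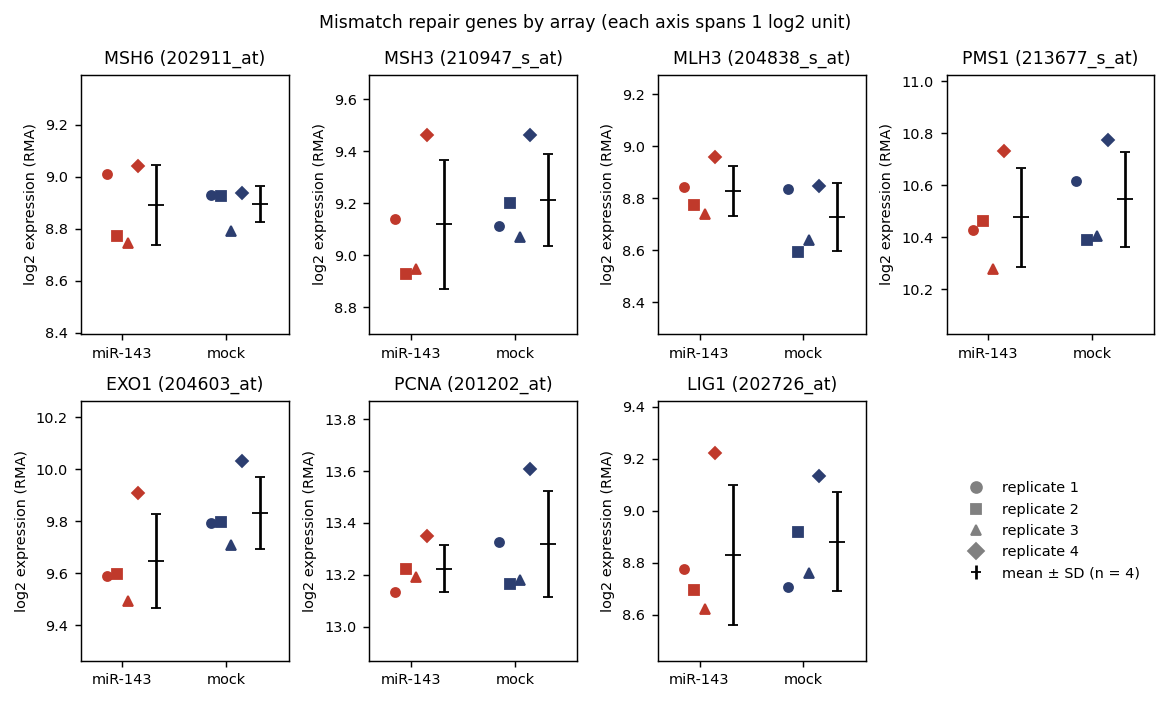
Log2 expression (RMA, vertical axis) of the brightest probe set of each of the 7 measured genes on the 4 miR-143 and the 4 mock arrays, with a symbol for each replicate number and the mean ± SD of each group (n = 4). The groups overlap in every panel, and replicate 4 is the highest array of both groups for MSH6, MSH3, MLH3, PMS1, EXO1, PCNA and LIG1.

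Among the MutL genes, MLH3 was the only measured gene whose probe sets all had positive log2 fold changes, and none passed the test. MLH3 forms a dimer best known for its part in meiotic crossing over. The brightest of its 3 probe sets had 8.84, 8.77, 8.74 and 8.96 with miR-143, against 8.83, 8.59, 8.64 and 8.85 in mock. The miR-143 arrays lay above mock replicates 2 and 3, and replicates 1 and 4 of mock lay among them. The log2 fold change was 0.10 with a 95% interval of −0.073 to 0.27 (adjusted p = 1 by limma). The other 2 probe sets of MLH3 averaged 8.21 and 8.17 with miR-143 and 8.17 for each in mock, with log2 fold changes of 0.046 for the second and 0.0022 for the third.

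PMS1, a MutL homologue whose role in human repair is unclear, had 1 bright probe set of 5. That probe set had 10.43, 10.46, 10.28 and 10.73 with miR-143, against 10.62, 10.39, 10.41 and 10.77 in mock. The groups interleaved, with replicate 4 at the top of each. The means were 10.48 ± 0.19 with miR-143 and 10.55 ± 0.18 in mock (SD, n = 4 each), a log2 fold change of −0.07 with a 95% interval of −0.32 to 0.18 (adjusted p = 1 by limma). The other 4 probe sets of PMS1 lay below the median level, with means of 6.71 to 7.22 with miR-143 and 6.74 to 7.18 in mock, and their log2 fold changes ran from −0.03 to 0.041.

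EXO1, the exonuclease of the excision step, had the largest difference of the 18 probe sets. Its only probe set had 9.59, 9.60, 9.49 and 9.91 in miR-143 replicates 1 to 4, against 9.79, 9.80, 9.71 and 10.03 in mock replicates 1 to 4. Replicates 1 to 3 with miR-143 lay below every mock array, and the groups overlapped through miR-143 replicate 4, which lay above mock replicates 1 to 3. The means were 9.65 ± 0.18 with miR-143 and 9.83 ± 0.14 in mock (SD, n = 4 each), a log2 fold change of −0.19 (standard error 0.099) with a 95% interval of −0.41 to 0.037. This is 0.879 times the mock level, with an interval of 0.754 to 1.03. It did not pass the test (unadjusted p = 0.092 and adjusted p = 1 by limma, and p = 0.143 by an exact two-sided permutation test of 4 against 4 arrays, which can go no lower than 0.0286). Without miR-143 replicate 4 the log2 fold change was −0.27 (adjusted p = 0.804 by limma), without mock replicate 4 it was −0.12 (adjusted p = 1), and without replicate 4 of both groups it was −0.21 (unadjusted p = 0.0035, adjusted p = 0.438). With the replicate block the interval of EXO1 was −0.29 to −0.081 (unadjusted p = 0.0024, adjusted p = 0.165 by limma), and each miR-143 array lay under the mock array of its number. Over all settings tried, its adjusted p lay between 0.165 and 1, and its log2 fold change was negative in all of them.

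PCNA and LIG1 act in DNA replication as well as in repair. PCNA, with 1 probe set, had 13.13, 13.22, 13.19 and 13.35 with miR-143, against 13.33, 13.17, 13.18 and 13.61 in mock. Mock replicate 4 was the highest array and the others mixed. The log2 fold change was −0.096 with a 95% interval of −0.32 to 0.12 (adjusted p = 1 by limma), and without mock replicate 4 it was −5e-04. LIG1, also with 1 probe set, had 8.77, 8.70, 8.62 and 9.22 with miR-143, against 8.71, 8.92, 8.76 and 9.13 in mock. Its spread within each group, 0.27 with miR-143 and 0.19 in mock (SD, n = 4 each), was larger than the difference between the groups. The log2 fold change of LIG1 was −0.052 with a 95% interval of −0.36 to 0.26 (adjusted p = 1 by limma).

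Over the 18 probe sets, 11 log2 fold changes were negative and 7 positive, with a median of −0.029, a lowest value of −0.19 (EXO1) and a highest of 0.10 (MLH3). This median was −0.011 after cyclic loess, and it was positive without miR-143 replicate 3 (0.018) and without mock replicate 4 (0.0028). Over all 41091 probe sets 22925 were negative and the median was −0.0091. Over the 20546 probe sets above the median level, 12697 were negative and the median was −0.023, beside 7 of 10 and −0.061 for the bright probe sets of these genes. Limma called 0 of the 18 probe sets, where it called 0.00243% of all probe sets lower and 0% higher, and 0 of the 18 had an unadjusted p under 0.05, where 2.57% of all did. The 2 groups did not overlap in 0 of the 18 probe sets, where the miR-143 values were all under the mock values for 1.25% of all probe sets and all over them for 0.781%. The lowest end of any of the 18 intervals was −0.41 (EXO1) and the highest was 0.27 (MLH3), so the intervals taken one at a time span 0.754 to 1.21 times the mock level.

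**Figure D2:**
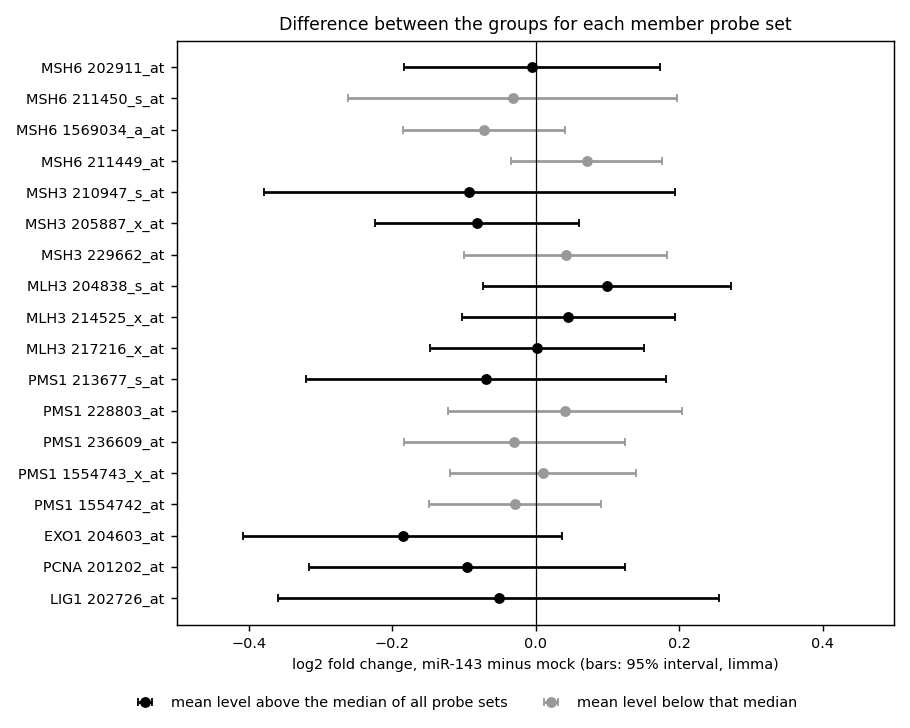
Log2 fold change of miR-143 minus mock (horizontal axis) for the 18 probe sets, with bars for the 95% interval from limma over 8 arrays, black where the mean level lies above the median of all probe sets (7.31) and grey where it lies below. Every interval includes 0, and the value of EXO1, −0.19, lies farthest from it.

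For the brightest probe set of each of the 7 genes, replicate 4 differed more from the other arrays of its own group than the group means differed from each other. In the miR-143 group, replicate 4 lay above the mean of replicates 1 to 3 for 10 of the 10 bright probe sets, by a median of 0.19 and by up to 0.53 (LIG1). In mock it did so for 9 of 10, by a median of 0.24 and by up to 0.38 (PCNA). Over all probe sets above the median level this held for 73.6% with miR-143 and 76.6% in mock, with medians of 0.16 and 0.17. For the 8 dim probe sets of the members the medians were −0.011 with miR-143 and −0.047 in mock, beside −0.039 with miR-143 and −0.038 in mock over all dim probe sets. The labels do not say what sets replicate 4 apart. For EXO1, the standard error was 0.048 with the replicate block, which takes out what the same numbers share, and 0.099 without it.

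**Figure D3:**
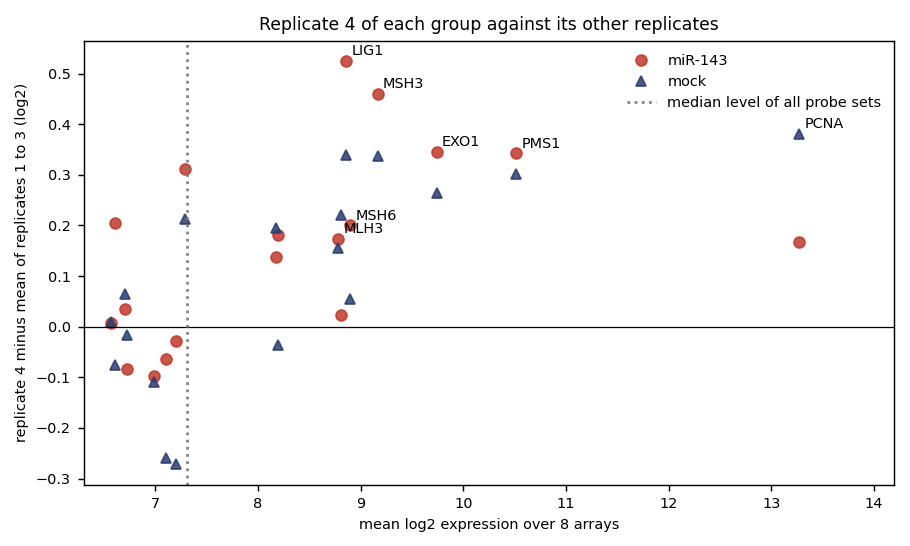
Replicate 4 minus the mean of replicates 1 to 3 of its own group (vertical axis, log2) against the mean level over 8 arrays (horizontal axis, log2) for the 18 probe sets, circles for miR-143 and triangles for mock, with the brightest probe set of each gene named. The 10 probe sets to the right of the dotted line at 7.31 lie above 0 in both groups, except 1 in mock.

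Other settings moved the values of single genes but called none of them. With arrays left out, the log2 fold change of EXO1 stayed between −0.27 and −0.12 and that of the brightest probe set of MLH3 between 0.054 and 0.14. Those of the brightest probe sets of 3 genes took both signs. For MSH6 they ran from −0.055 to 0.044 and were positive without miR-143 replicate 2 or 3 and without mock replicate 1, 2 or 4. For PMS1 they ran from −0.16 to 0.0061, and only the value without mock replicate 4 was positive. For LIG1 they ran from −0.18 to 0.033, with 0.017 without miR-143 replicate 3 and 0.033 without mock replicate 4.

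**Figure D4:**
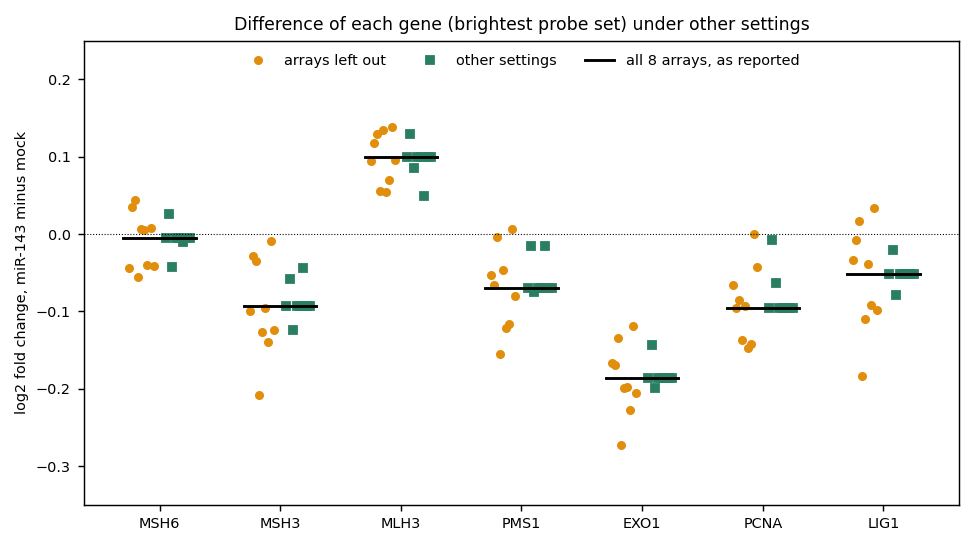
Log2 fold change of miR-143 minus mock (vertical axis) of the brightest probe set of each gene with all 8 arrays (black line), with arrays left out (circles) and under the other settings tried (squares, among them the mean of all probe sets of a gene). The values of EXO1 are negative and those of MLH3 positive throughout, and those of MSH6, PMS1 and LIG1 take both signs.

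The pattern over the 8 arrays was also set against that of all other genes, by the root mean square difference of the values after each gene was centred on its own mean, with the brightest probe set per gene. LIG1 and MSH3 were the 2 members closest to each other, at 0.055 on the log2 scale. The closest genes of all were NPLOC4 (0.013) and ERAL1 (0.026) for LIG1, GATB and PPIP5K1 (0.031 each) for MSH3, and TSN (0.029) and ZBED3 (0.033) for EXO1. For PCNA they were FZD1 (0.02) and CYCS (0.027), for PMS1 EPS8 (0.018) and MELK (0.021). For MLH3 they were STXBP6 and LRRC8E (0.034 each), and for MSH6 KRABD4 (0.029) and SIRT7 (0.035). Between 26 (MSH6) and 164 (PMS1) of the 19752 genes lay within 0.05 of a member, and all points share the same 8 arrays and the high replicate 4.

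No probe set passed the test in a further list of DNA synthesis and DNA binding genes either. The list held 15 genes with 31 probe sets. It took in the clamp loader RFC1 to RFC5, which places PCNA on DNA, the single-strand binding proteins RPA1 to RPA4 and SSBP1, of which SSBP1 acts in mitochondria and RPA4 is a variant that does not support replication, the subunits POLD1 to POLD4 of polymerase delta, and the chromatin protein HMGB1. Limma called 0 of the 31 probe sets, and 1 had an unadjusted p under 0.05, where 2.57% of all 41091 did. It was a probe set of RFC5, not its brightest, with a log2 fold change of −0.29 (unadjusted p = 0.0206, adjusted p = 1). There, replicate 4 was the lowest array with miR-143 (10.40) and the highest in mock (11.08). The other probe sets of RFC5 had log2 fold changes of −0.12 each (unadjusted p = 0.315 for the brightest and 0.398 for the dimmest, limma). Of the 31 log2 fold changes 25 were negative, with a median of −0.079. Over all 41091 probe sets 22925 were negative (median −0.0091), and over the 20546 above the median level 12697 were (median −0.023). The median of the 31 was −0.0038 without mock replicate 4 and −0.17 without miR-143 replicate 4. It was −0.038 without miR-143 replicate 3 and −0.12 without mock replicate 2. After cyclic loess it was −0.039 with 20 negative, beside 0.0036 with 19522 negative over all probe sets. With the replicate block 9 of the 31 had an unadjusted p under 0.05, where 8.83% of all probe sets did. All 9 had negative log2 fold changes, and they belong to RFC3, RFC5, RPA1 (2 each), RPA3, POLD3 and HMGB1. Their lowest adjusted p was 0.227 (RPA3, limma). Most of the 31 probe sets lie above the median level, and the share of 8.83% was not taken for such probe sets alone. In the limma fit without the block, 822 of the 20546 probe sets above the median level had an unadjusted p under 0.05, beside 1056 of all 41091. The 9 are therefore not set against probe sets of like level. The 12 probe sets of the clamp loader had a median of −0.11, and 11 of them were negative. The 9 of the single-strand binding proteins had −0.077 with 6 negative, the 5 of polymerase delta −0.024 with 3 negative, and the 5 of HMGB1 −0.10 with 5 negative.

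The largest differences by brightest probe set were those of RPA3, RPA1, RFC3 and POLD3. RPA3, the smallest subunit of RPA, had 11.40, 11.41, 11.41 and 11.66 with miR-143, against 11.63, 11.43, 11.77 and 11.88 in mock, and its groups overlapped through miR-143 replicate 4. Its log2 fold change was −0.21 (standard error 0.102, adjusted p = 1 by limma). The values were −0.18 for RPA1, the large subunit, −0.17 for RFC3 and −0.15 for POLD3, each with an adjusted p of 1. Of the meiotic MutS homologues, MSH5 had no probe set of its own alone, and MSH4 had 7.40 ± 0.11 with miR-143 and 7.42 ± 0.034 in mock (SD, n = 4 each), a log2 fold change of −0.025 (adjusted p = 1 by limma). Both means of MSH4 lay within the range of the markers of other cell types (6.70 to 8.14 with miR-143, 6.70 to 8.15 in mock).

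**Figure D5:**
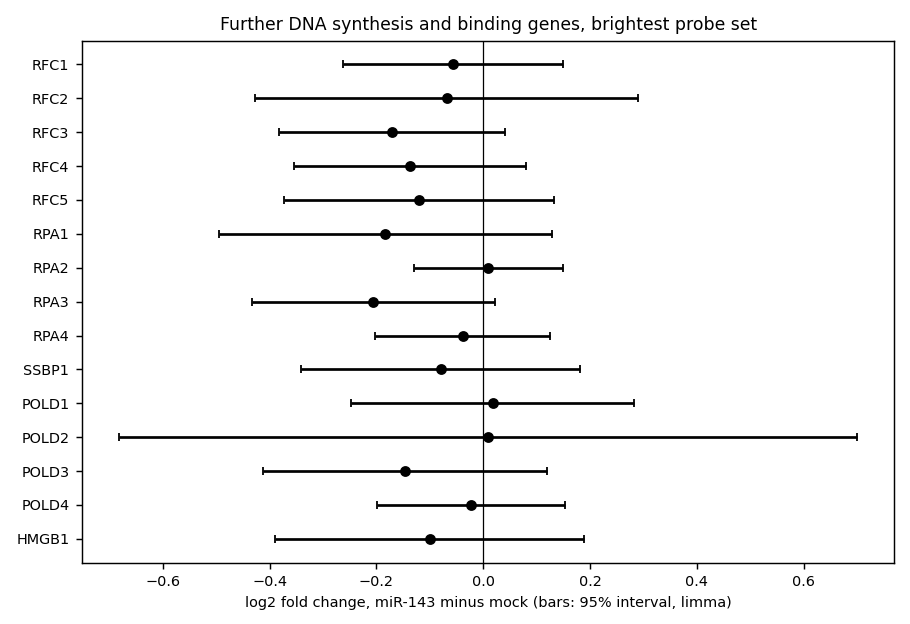
Log2 fold change of miR-143 minus mock (horizontal axis) for the brightest probe set of the 15 further DNA synthesis and DNA binding genes, with bars for the 95% interval from limma over 8 arrays. Every interval includes 0, 12 of the 15 values are negative, and POLD2 has the widest interval. The level of RPA4 lies below the median of all probe sets (7.31), and those of POLD1 and POLD4 within the range of the markers of other cell types. The values of RPA4 and POLD4 are among the negative ones, and that of POLD1 is positive.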

How the data were processed

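Expression was measured in 4 miR-143 and 4 mock cultures of DLD-1 cells, 1 array each. Per the labels, the authors made the deposited log2 values with RMA in the affy package (versions are not given in the sources used here), which corrects background, normalizes quantiles and summarises probes. These values were used as deposited. They carry no count or depth, so the number of arrays limits the precision. Probe sets were named from the platform annotation, with symbols updated by Entrez identifier or older symbol through RefSeq: 41091 had 1 symbol and were tested, 1801 had several, 11721 had none and 62 were controls.

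The comparison was made in R 4.3.3 with lmFit and eBayes of limma 3.58.1, two-sided, adjusted by Benjamini-Hochberg over the 41091 probe sets. Single probe sets were also tested with an exact permutation test. The fit was tested on simulated data, where it found 86.2% of changes of 0.8 and 45.4% of changes of 0.4 (log2). The simulated noise was independent between arrays, without the shift that replicate 4 of both groups shares. The changed probe sets were drawn from all those tested. These shares therefore do not say how many changes of such a size would be found among the genes followed here. Every probe set of the members is given, and of the other factors the 4 with the largest change, plus RFC5 and OIP5-AS1, chosen after their values were seen. Members, lists and alternatives were chosen with earlier results of these data known. Tables were made with Python 3.11.15 and pandas 2.3.3.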

Additional observations from a re-analysis of the deposited data

Results flagged for a closer look

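In 2 groups of 4 arrays, 1 value lay far from the other 3. The brightest probe set of MSH6 had 8.79 in mock replicate 3, against 8.93 to 8.94 in the other mock arrays. That of RPA3 had 11.66 in miR-143 replicate 4, where replicates 1 to 3 of miR-143 had 11.40 to 11.41. These were 2 of 44 groups examined, 4.5%, where chance gives about 1 in 20 and all probe sets of these arrays gave 6.9%.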

How the results depend on the processing

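Besides the comparison as given, 17 settings were tried, and 0 of the 18 probe sets of the mismatch repair genes and 0 of the 31 of the other factors were called under any of them. The lowest adjusted p of a member was 0.165 (EXO1, with the replicate block). Whether the same replicate numbers mark pairs is not settled. Deviations from the group means correlated at 0.079, 0.11, 0.56 and 0.77 for numbers 1 to 4 over all probe sets, with the first narrowly under the limit of 0.1. Over the brightest probe set of each gene, a choice made after seeing the data, they correlated at 0.11, 0.17, 0.58 and 0.81, all over it. Numbers 1 and 2 of miR-143 correlated best with another number of mock (0.17 and 0.47 over all probe sets), while numbers 3 and 4 did so with their own. With the replicate block, limma called 171 probe sets lower and 45 higher over the whole table, against 1 and 0 without it, and the member with an unadjusted p under 0.05 was EXO1 (0.0024), where 8.83% of all probe sets had one. After cyclic loess there were 37 lower and 23 higher, with array weights 35 and 19, and with 1 probe set per gene, with the mean of a gene's probe sets or with a prior that follows the level 0 lower. With arrays left out there were 0 to 32 lower and 0 to 19 higher, the highest without replicate 4 of both groups.

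Log2 fold changes that took the other sign were small. After cyclic loess the brightest MSH6 probe set had 0.027, and with array weights the third of MSH3 had −0.0024 and the second of PMS1 −0.002. Without replicate 4 of both groups the third of MSH3 had −0.028, the second of MLH3 −0.0089 and the second of PMS1 −0.0201. With 1 array left out, the ranges were −0.055 to 0.044 (brightest) and −0.11 to 0.051 (second) for MSH6, −0.0094 to 0.064 for the third of MSH3, −0.032 to 0.051 for the third of MLH3 and −0.18 to 0.033 for LIG1. For PMS1, from the brightest to the fifth, they were −0.16 to 0.0061, −0.027 to 0.086, −0.095 to 0.002, −0.028 to 0.035 and −0.045 to 0.0033. By the exact permutation test 0 of 18 probe sets had a p under 0.05, and 0 to 1 with an array left out. This was the fourth of MSH6 without mock replicate 1, the third of MSH6 without mock replicate 3 and the third of PMS1 without mock replicate 4, all dim, each at 0.0286, the smallest exact p possible there. The cause of these shifts was not tested. Dim probe sets and 4 arrays a group limit what could be seen.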
